A study of Mus musculus with 9 samples.

Results

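Abca1, Abcg1, Nr1h2, Nr1h3, Soat1, Lrp1, Sqle and Srebf2 encode proteins that export, take up, store, make or sense cholesterol. These 8 genes were taken by their symbols from the 24394 genes of a count table, and all 8 were found. The table holds RNA sequencing reads from microglia, group 2 innate lymphoid cells (ILC2) and T cells of aged mouse brains, and the study's question was which genes differ in expression among them. Every animal was a C57BL/6 mouse of 20 to 22 months that had received 400 ng of interleukin-33 (IL-33) a day for 7 days. No group without IL-33 was among the samples, and no genotype other than the strain is given, so no effect of IL-33 or of age was computed. Cells were sorted on surface markers that the labels do not name, and the libraries used here were 3 of microglia, 2 of ILC2 and 3 of T cells.

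Cholesterol is made from acetyl-CoA through the mevalonate pathway, in which squalene epoxidase (Sqle) oxidises squalene to the precursor of the first sterol. When membrane sterol is low, the transcription factor SREBP2 (Srebf2) is released from its membrane anchor and turns on synthesis and uptake genes. When oxysterols accumulate, the nuclear receptors LXRα (Nr1h3) and LXRβ (Nr1h2), each paired with an RXR receptor, turn on export genes such as Abca1 and Abcg1. ABCA1 loads cholesterol and phospholipid onto lipid-poor apolipoproteins, ABCG1 moves sterol towards lipid-rich particles, LRP1 is an endocytic receptor for apolipoprotein E (Apoe) and other ligands, and SOAT1 esterifies cholesterol for storage in droplets. Microglia, the resident macrophages of the brain, engulf myelin and dying cells and so take in sterol that they cannot break down.

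Loci below are those of GENCODE M21 on GRCm38, the assembly that mm10 names. Short stretches of sequence are shown first as a description of letters, and no binding or regulation was tested with them. The microRNA miR-33 lies within Srebf2 and is known in mouse to repress Abca1 and Abcg1. Its mature 5p strand is encoded at chr15:82198127-82198147 on the plus strand of GRCm38.p6, per RefSeq, and its seed (bases 2 to 8) is in capitals. The lines after it are windows after the stop codons of Abca1 (chr4:53033781-53033805, minus strand) and Abcg1 (chr17:31114990-31115014, plus strand), read from the GENCODE M21 transcripts of the same assembly, with the 7 bases that pair with the seed in capitals.
mmu-miR-33-5p: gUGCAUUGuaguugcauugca
Abca1: tgcaatgcacttCAATGCAacgaga
Abcg1: actaacgcaacgCAATGCAacgcaa
The letters CAATGCA, searched on the transcript strand, occurred 3 times in the 3156 bases after the Abca1 stop codon, and 0.111% of 2696 genes with a stretch of like length held as many. They occurred 2 times in the 3703 bases after the Abcg1 stop codon, and 2.12% of 2213 genes of like length held as many. They occurred 0 times after the stop codons of the other 6 genes. The table's row for Mir33 had 0 counts in all 8 libraries, so no level of the microRNA was measured.

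Promoter windows from RefSeq (GRCm38.p6), 250 bases before to 50 after the start of a transcript, matched 6 of the 8 genes with 7 windows. The stretches below show letter matches to shortened regulator elements, and a CCAAT box, in 2 of them. The Abca1 stretch (chr4:53159947-53159976, minus strand, bases -81 to -52) has in capitals a match on the opposite strand to the LXR element, a spaced pair of receptor sites, without its first base. The Srebf2 stretch (chr15:82147094-82147143, plus strand, bases -175 to -126) has in capitals TCACNCCA, a sterol regulatory element without its last base, and then a CCAAT box on the opposite strand.
Abca1: gagagaacagcgttTGACCGGTAGTAACCc
Srebf2: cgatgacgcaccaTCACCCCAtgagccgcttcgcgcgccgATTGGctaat
On either strand, 0.207% of 32851 promoter windows held the first motif, 4.36% the second and 37.4% a CCAAT box. The full LXR element and the full sterol regulatory element TCACNCCAC were in 0.0883% and 1.24% of windows and in 0 of the 7 windows of these genes, and the shortened forms were chosen after those windows had been read. A GC box (GGGCGG) was in 4 of the 7 windows, those of Abca1, Lrp1, Soat1 and Srebf2, and in 35.7% of all windows. A match of letters is a description and not evidence of binding.

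Libraries held 8376609 to 13585956 counts on genes. Levels are in counts-per-million (CPM) after TMM scaling of each library, and a count of 3 in a library, taken as the floor, was worth 0.207 to 0.326 CPM. Libraries are numbered in the order of their columns, and the numbers pair nothing across populations. The 10 microglial markers summed to 40042 to 60456 CPM in microglia, against 829 and 973 CPM in ILC2 and 565 to 1554 CPM in T cells. The 10 ILC2 markers summed to 4362 and 4679 CPM in ILC2, against 406 to 611 CPM in T cells and 47.7 to 80.3 CPM in microglia, and Nmur1 and Il9r were at 0 in microglia. The 10 T cell markers summed to 9435 to 12230 CPM in T cells, against 708 and 859 CPM in ILC2, where Cd6 was at 0, and 20.6 to 45.2 CPM in microglia, where Cd8a, Cd4, Cd6 and Cd28 were at 0. Most of the ILC2 sums came from Cd3g, at 559 and 791 CPM, and Lck was next at 91.9 and 58.8 CPM. Neutrophil markers, of which 9 of 10 were in the table, stood apart in the microglia libraries at 80166, 13476 and 93620 CPM, against 154 and 158 CPM in ILC2 and 88.2 to 440 CPM in T cells. Of the border macrophage and monocyte markers (11 of 11 in the table), Ly6c2, Ccr2 and Plac8 summed to 249 to 666 CPM in microglia, against 1018 and 1035 CPM in ILC2 and 1380 to 2468 CPM in T cells. The other 8 summed to 107 to 215 CPM in microglia, against 9.69 and 24.3 CPM in ILC2, where Cd163, Lyve1 and Cbr2 were at 0, and 4.69 to 31.0 CPM in T cells, where Mrc1, Lyve1 and Cbr2 were at 0. This split of the list was made after its values were seen. Astrocyte markers (7 of 7) summed to 169 to 293 CPM in microglia, against 47.1 and 65.7 CPM in ILC2 and 6.34 to 40.2 CPM in T cells, where Gfap and Aqp4 were at 0. Most of the microglia sums came from Slc1a3, at 183, 273 and 161 CPM. By mean level, Aldh1l1, Slc1a2, Gja1 and Aldoc were lower in microglia than in ILC2, and Gfap and Aqp4 were higher. Endothelial markers (6 of 6) summed to 155 to 336 CPM in microglia, against 26.2 and 57.7 CPM in ILC2 and 10.4 to 73.1 CPM in T cells. Basophil and mast cell markers (9 of 9 in the table) summed to 455 and 1292 CPM in ILC2, against 8.20 to 110 CPM in T cells and 51.0 to 233 CPM in microglia.

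Tests were two-sided quasi-likelihood F tests in edgeR over the 13000 genes whose counts averaged 10 or more per library, and all 8 genes were among them. A gene was called where its adjusted p (Benjamini-Hochberg over the 13000 genes) was under 0.05 and its log2 fold change was 1 or more in size. The labels do not say whether the libraries came from separate animals, so the p-values reflect how far libraries of a population differed, and that spread could be technical.

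Against T cells, microglia had more Abca1 and less Srebf2, and these were the genes of the 8 that were called. Of all 13000 genes, 13% were called between microglia and T cells, 7.13% higher and 5.91% lower in microglia. Against ILC2, Srebf2 was called lower in microglia and no gene of the 8 was called higher, where 9.75% of all genes were called, 4.99% lower and 4.76% higher. Between ILC2 and T cells, edgeR called 0 of the 8 genes, and 0 had an unadjusted p under 0.05, where 1221 of the 13000 genes did. DESeq2, which gave no adjusted p for Abca1, and limma-voom called 0. In that comparison 0.923% of all genes were called, 0.431% higher and 0.492% lower.

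**Figure D1:**
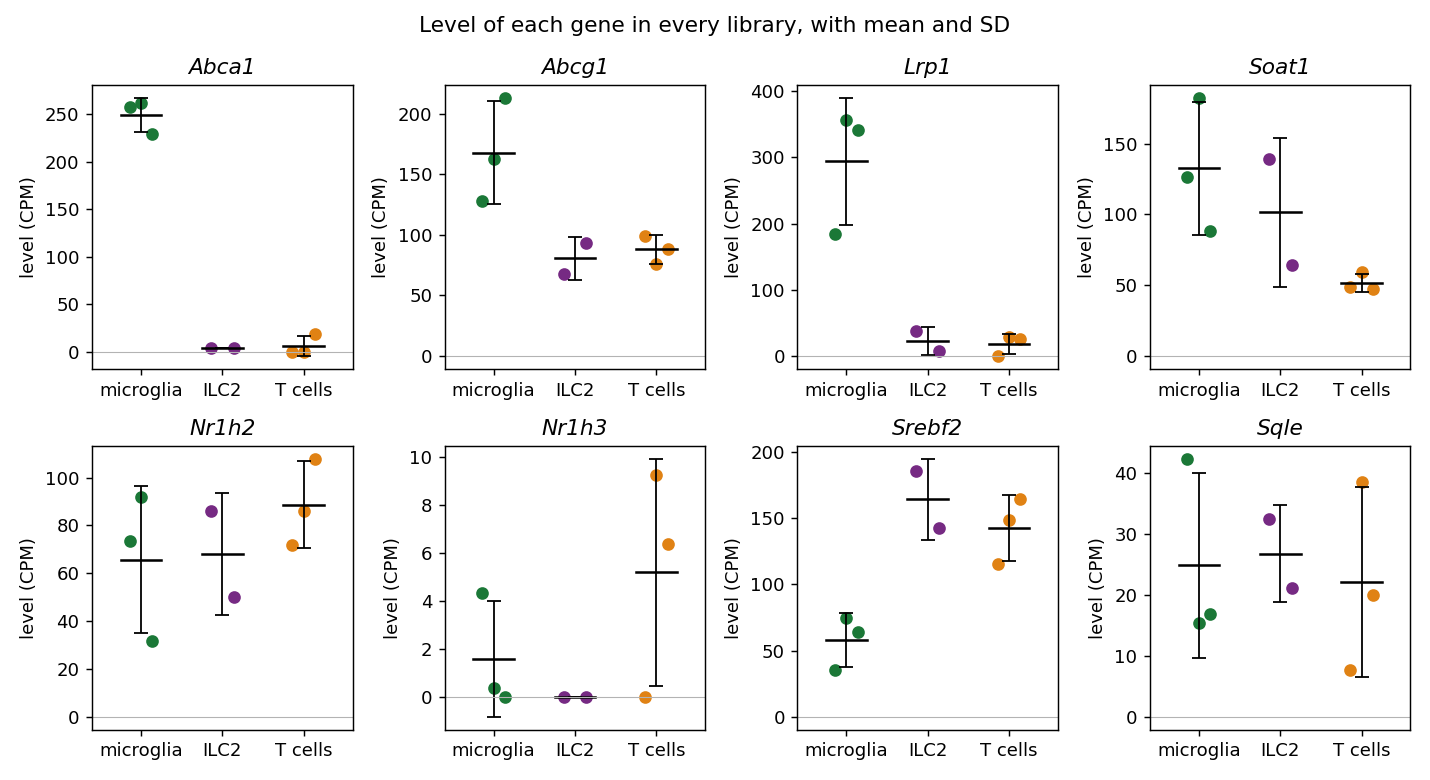
Level of each of the 8 genes in CPM (vertical axis, linear) in every library of microglia, ILC2 and T cells. Points are libraries, horizontal bars are means and error bars are SD (n = 3, 2 and 3). Abca1 and Lrp1 stand high in all microglia libraries, Srebf2 stands low in them, and Nr1h3 is at or near 0 in most libraries.

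Abca1 (chr4:53030787-53159895, minus strand), the exporter that loads apolipoproteins, had 257, 262 and 229 CPM in the microglia libraries, 4.20 and 4.20 CPM in the ILC2 libraries, and 0.434, 0.00 and 18.4 CPM in the T cell libraries. All microglia libraries lay above all lymphocyte libraries, and the T cell libraries themselves ran from 0 counts to 185 counts. The mean was 249 ± 17.9 CPM in microglia (SD, n = 3) and 6.29 ± 10.5 CPM in T cells (SD, n = 3), a log2 fold change of 5.31 ± 1.51 (SE; edgeR adjusted p = 0.0462). Against the ILC2 mean of 4.20 ± 0.00204 CPM (SD, n = 2) the log2 fold change was 5.89 ± 1.87 and was not called (edgeR adjusted p = 0.0822). Abca1 over ILC2 was called in edgeR without T cells 2 (adjusted p = 0.0199), without T cells 3 (0.00222), without a filter (0.0123), with the 2 groups alone (0.000529) and with the newer quasi-likelihood method (5.89e-05), and by limma-voom (0.0107). Its adjusted p over ILC2 ran from 0.00222 to 0.320 without each library. In bulk RNA, fewer cells of a type and less RNA per cell cannot be told apart, here or in the results that follow. Against T cells, Abca1 was not called in edgeR without library scaling (adjusted p = 0.0578) or with the 2 groups alone (0.0656). The call against T cells rested on most libraries. The edgeR adjusted p was 0.0854, 0.0897 and 0.0878 without microglia 1, 2 and 3, 0.0970 when T cells 1 was left out, and 0.0613 and 0.0679 when ILC2 1 or ILC2 2 was. Without T cells 3 the log2 fold change was 10.26 with an adjusted p of 0.000554 in edgeR, a size that rests on 4 counts in the other T cell libraries, and without T cells 1 it was 4.77.

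Abcg1 (chr17:31057675-31117988, plus strand), the exporter that works with lipid-rich particles, was detected in every library and spanned a smaller range. It had 128, 163 and 213 CPM in microglia, 68.0 and 93.4 CPM in ILC2, and 99.2, 76.0 and 88.7 CPM in T cells. Every microglia library was above every lymphocyte library, and the ILC2 libraries overlapped those of T cells. The log2 fold change was 0.93 ± 0.32 for microglia over T cells (edgeR adjusted p = 0.0863) and 1.06 ± 0.37 for microglia over ILC2 (edgeR adjusted p = 0.107), neither of which was called. DESeq2 called both, with adjusted p-values of 0.0266 and 0.0379. Abcg1 in the lymphocyte libraries was 40.5% to 59.0% of its microglia mean, while Abca1 was 1.68% and 1.69% of its microglia mean in ILC2 and 0.174%, 0.00% and 7.39% in T cells.

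The balance of the exporters was set within each library as the log2 ratio of Abca1 to Abcg1 (each as CPM + 1), a value that leaves library scaling nearly out. It was 1.00, 0.68 and 0.10 in microglia, -3.73 and -4.18 in ILC2, and -6.13, -6.27 and -2.21 in T cells. Microglia thus had slightly more Abca1 than Abcg1 reads and all lymphocyte libraries had fewer. The means were 0.60 ± 0.46 in microglia and -4.50 ± 1.71 in the 5 lymphocyte libraries, a difference of 5.10. An exact two-sided permutation test over libraries gave p = 0.0357, the smallest value this design allows, and 0.107 after adjustment over the 3 ratios tested.

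Lrp1 (chr10:127538161-127621148, minus strand), the endocytic receptor, had 184, 356 and 342 CPM in microglia, 37.2 and 7.45 CPM in ILC2, and 0.109, 28.5 and 25.6 CPM in T cells. Microglia did not overlap either lymphocyte population, and the lowest T cell library held 1 count of Lrp1 against 413 and 257 in the others. The mean was 294 ± 95.8 CPM in microglia (SD, n = 3), 22.3 ± 21.1 CPM in ILC2 (SD, n = 2) and 18.1 ± 15.6 CPM in T cells (SD, n = 3). For Lrp1 the log2 fold change was 4.02 ± 1.22 for microglia over T cells (edgeR adjusted p = 0.0592) and 3.72 ± 1.43 for microglia over ILC2 (edgeR adjusted p = 0.145), and neither was called. Without T cells 1, the library with 1 count, both were called in edgeR, with log2 fold changes of 3.44 and 3.72 and edgeR adjusted p-values of 0.0177 and 0.0129. With all libraries, Lrp1 over T cells was called by DESeq2 (adjusted p = 0.0185) and limma-voom (0.0175), and Lrp1 over ILC2 by limma-voom (0.0106).

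Soat1 (chr1:156424525-156474331, minus strand), which forms cholesteryl esters, had 126, 182 and 88.5 CPM in microglia, 139 and 64.4 CPM in ILC2, and 48.8, 59.1 and 47.5 CPM in T cells. The T cell libraries lay close together and below all others, and ILC2 overlapped microglia. The log2 fold change was 1.35 ± 0.41 for microglia over T cells (edgeR adjusted p = 0.0577), 0.38 ± 0.45 for microglia over ILC2 (adjusted p = 0.711) and 0.97 ± 0.44 for ILC2 over T cells (adjusted p = 0.544), none of them called. Soat1 in microglia over T cells was called without ILC2 1 (adjusted p = 0.0454) and without ILC2 2 (adjusted p = 0.0383) in edgeR. It was called by DESeq2 as well (adjusted p = 0.00960).

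**Figure D2:**
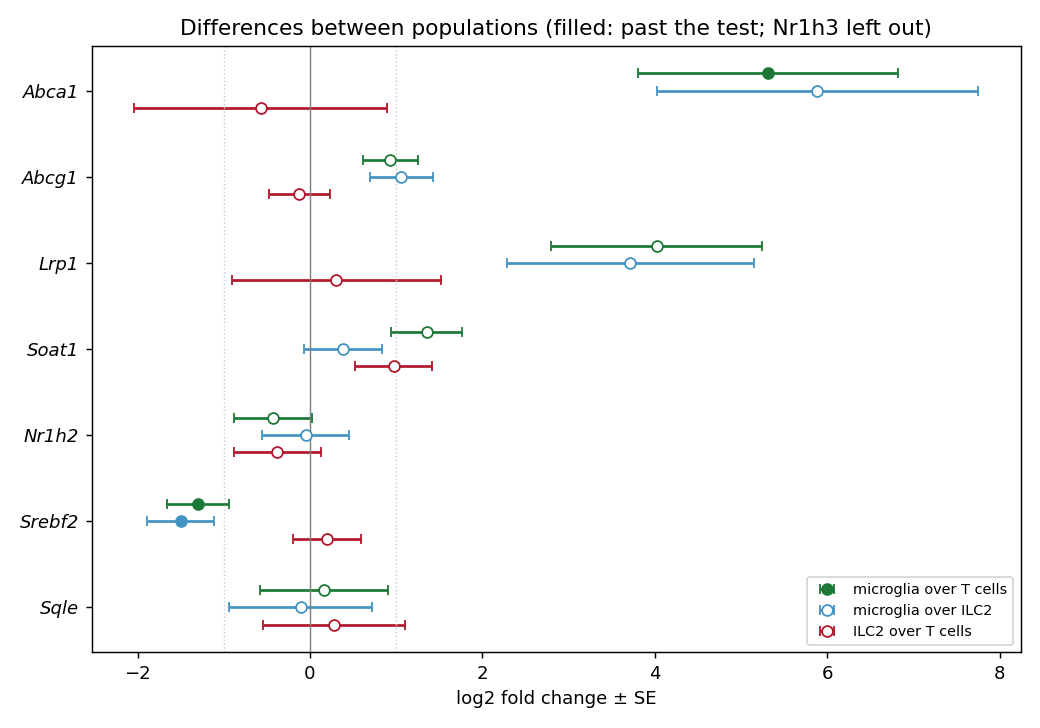
Log2 fold change ± SE (horizontal axis) of 7 genes in microglia over T cells, microglia over ILC2 and ILC2 over T cells, from 1 fit of 8 libraries. Filled points passed the test and dotted lines mark log2 fold changes of -1 and 1. Nr1h3 is left out because it had no count in ILC2. Abca1 and Lrp1 have the widest errors, and Srebf2 is the gene left of 0 with filled points.

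Srebf2 (chr15:82147181-82205379, plus strand), which encodes SREBP2, had 34.98, 74.8 and 64.1 CPM in microglia, 186 and 142 CPM in ILC2, and 115, 148 and 164 CPM in T cells. The highest microglia library was below the lowest lymphocyte library, and ILC2 and T cells overlapped. The mean was 58.0 ± 20.6 CPM in microglia (SD, n = 3), 164 ± 30.9 CPM in ILC2 (SD, n = 2) and 143 ± 24.8 CPM in T cells (SD, n = 3). Srebf2 was lower in microglia than in T cells by a log2 fold change of -1.30 ± 0.36 (edgeR adjusted p = 0.0423) and lower than in ILC2 by -1.50 ± 0.39 (edgeR adjusted p = 0.0407). Oligodendrocyte markers (8 of 8 in the table) also summed lower in microglia, at 222 to 307 CPM, against 755 and 1166 CPM in ILC2 and 462 to 608 CPM in T cells, where Mog was at 0, and their part in the Srebf2 values was not tested. Both calls depended on the libraries and the settings of the fit. The edgeR adjusted p against T cells was 0.100, 0.0534 and 0.0864 without microglia 1, 2 and 3, and 0.0617, 0.121 and 0.0936 without T cells 1, 2 and 3. Against ILC2 it was 0.0869, 0.0513 and 0.0830 without microglia 1, 2 and 3, 0.142 and 0.0881 without ILC2 1 and 2, and 0.0504, 0.0680 and 0.0510 without T cells 1, 2 and 3. The log2 fold change stayed between -1.52 and -1.04 against T cells and between -1.73 and -1.24 against ILC2 in these fits. Against T cells, Srebf2 was also not called in edgeR with DESeq2 size factors (adjusted p = 0.0529) or without a filter (0.0529). With the 2 groups alone the edgeR adjusted p was 0.0520 against T cells and 0.0610 against ILC2. DESeq2 called Srebf2 in both comparisons.

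Sqle (chr15:59315077-59331192, plus strand), the squalene epoxidase of the synthesis pathway, had 42.4, 15.3 and 16.8 CPM in microglia, 32.4 and 21.1 CPM in ILC2, and 7.70, 38.6 and 19.9 CPM in T cells. All 3 populations overlapped, and the spread within microglia and within T cells was larger than any difference of means. Its log2 fold change was 0.17 ± 0.74 for microglia over T cells, where it was -0.21 without library scaling, and -0.11 ± 0.83 for microglia over ILC2, with edgeR adjusted p-values of 0.932 and 0.973. The log2 ratio of Sqle to Soat1 averaged -2.46 ± 0.97 in microglia (n = 3) and -1.59 ± 0.74 in the lymphocyte libraries (n = 5), and an exact two-sided permutation test gave p = 0.250, or 0.375 after adjustment over 3 ratios.

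Nr1h2 (chr7:44549616-44553951, minus strand), which encodes LXRβ, had 73.7, 91.8 and 31.8 CPM in microglia, 86.1 and 50.1 CPM in ILC2, and 71.8, 85.9 and 108 CPM in T cells. Its libraries overlapped in all comparisons. The log2 fold change was -0.43 ± 0.45 for microglia over T cells and -0.05 ± 0.50 for microglia over ILC2, with edgeR adjusted p-values of 0.606 and 0.984. The second value was 0.02 with the size factors of DESeq2.

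Nr1h3 (chr2:91184061-91202834, minus strand), which encodes LXRα, had 43, 4 and 0 counts in microglia (4.35, 0.395 and 0.00 CPM), 0 counts in both ILC2 libraries, and 0, 134 and 64 counts in T cells (0.00, 9.24 and 6.37 CPM). In each of microglia and T cells 1 library had no count, so the libraries did not group by population. T cells averaged 5.20 ± 4.73 CPM (SD, n = 3), at least 21.7-fold above the ILC2 floor of 3 counts per library, and its mean was 3.19 to 7.81 CPM without each T cell library. Microglia averaged 1.58 ± 2.40 CPM (SD, n = 3), at least 6.58-fold above that floor, but this rests on microglia 1, without which the mean of 0.198 CPM lay under the floor of 0.240 CPM. In edgeR the adjusted p was 0.732 for microglia over T cells, 0.292 for microglia over ILC2 and 0.553 for ILC2 over T cells. Of the exon bases of Nr1h3, 1.35% are shared with another annotated gene on the same strand. The log2 ratio of Nr1h3 to Nr1h2 is not compared, because Nr1h3 had no count in 4 of the 8 libraries, where the added 1 CPM sets the ratio.

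By non-overlap of libraries alone, Abca1, Abcg1, Lrp1 and Soat1 were higher and Srebf2 was lower in microglia than in T cells, where 18.7% of all genes tested did not overlap higher and 18.4% lower. Abca1, Abcg1 and Lrp1 were higher and Srebf2 lower in microglia than in ILC2, against 21.1% and 21.9% of all genes. Soat1 was higher in ILC2 than in T cells, against 13.4% of all genes.

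Divided by exon length, the levels within microglia ran, in CPM per kilobase, 24.1 ± 1.72 for Abca1, 23.0 ± 5.86 for Abcg1, 19.6 ± 9.18 for Nr1h2, 16.6 ± 5.41 for Lrp1, 13.5 ± 4.82 for Soat1, 8.07 ± 2.87 for Srebf2, 4.48 ± 2.74 for Sqle and 0.629 ± 0.956 for Nr1h3 (SD, n = 3). Neighbours from Abca1 to Soat1 lay within their spread of each other. In T cells the per-kilobase order was led by Nr1h2 at 26.4 ± 5.43, Srebf2 at 19.9 ± 3.46 and Abcg1 at 12.1 ± 1.59, and Abca1 was last at 0.607 ± 1.01 (SD, n = 3). In ILC2 it was led by Srebf2 at 22.8 ± 4.30, Nr1h2 at 20.3 ± 7.59 and Abcg1 at 11.1 ± 2.46, with Abca1 at 0.405 ± 0.000197 and Nr1h3 without a count (SD, n = 2). The T cell means of Abca1 and of Lrp1, at 1.02 ± 0.881, lay within each other's spread, and Lrp1 was the lower in T cells 1 and 3. In microglia Abca1 was first by its mean, while Nr1h2 was above it in microglia 2 and Abcg1 in microglia 3. By mean levels per kilobase, Srebf2 stood below Soat1 in microglia and above Abcg1 in both lymphocyte populations.

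The exporter and receptor genes that were low in lymphocytes were set beside the microglial markers in the same libraries. The sum of the 10 microglial markers was 1.63% and 1.92% of its microglia mean in ILC2, and 1.12%, 2.70% and 3.07% in T cells. Abca1 was 1.68% and 1.69% of its microglia mean in ILC2, close to the marker sum there, and 0.174%, 0.00% and 7.39% in T cells. Lrp1 was 12.7% and 2.54% of its microglia mean in ILC2 and 0.0369%, 9.68% and 8.71% in T cells. Apoe, the main apolipoprotein of the brain, was 6.07% and 8.19% in ILC2 and 4.91%, 2.43% and 12.4% in T cells. The order of the 5 libraries differed among these values. T cells 3 was the highest for the marker sum, Abca1 and Apoe, but T cells 2, next by marker sum, was the lowest for Abca1 and Apoe. T cells 1 was the lowest for the marker sum and Lrp1, but Lrp1 was highest in ILC2 1, where only T cells 1 had a lower marker sum. The part of microglial, macrophage, monocyte, astrocyte or endothelial RNA in the values of these genes was not tested.

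**Figure D3:**
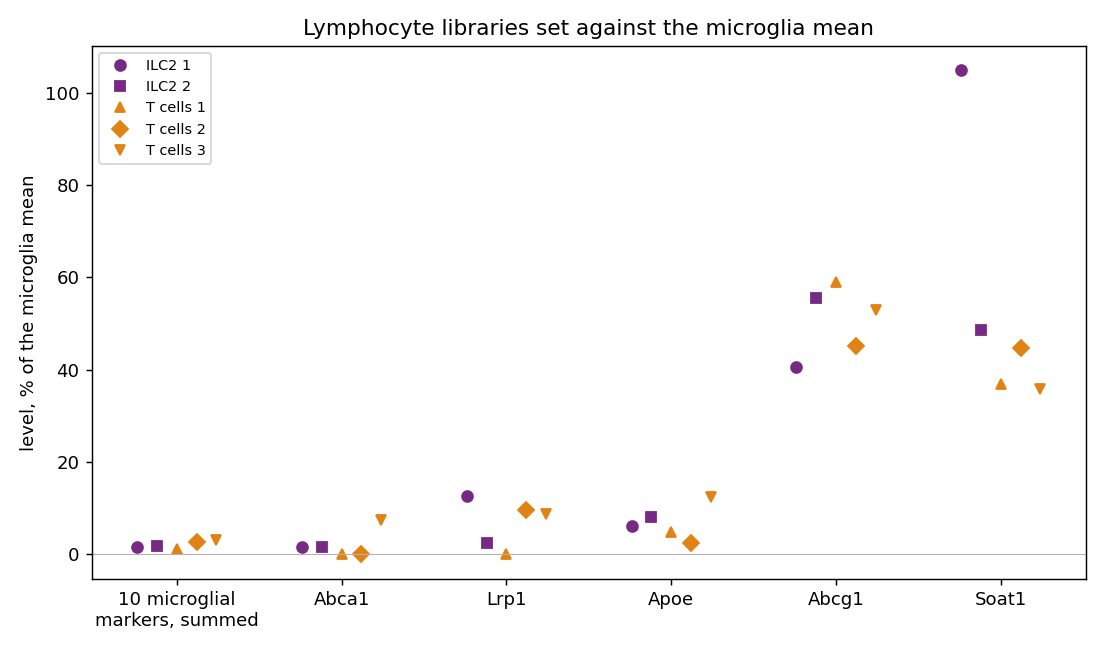
Level in each of the 5 lymphocyte libraries as a percent of the microglia mean (vertical axis, linear), for the sum of 10 microglial markers and for Abca1, Lrp1, Apoe, Abcg1 and Soat1. Symbols are libraries, with ILC2 left of T cells. The marker sum lies at 1.12% to 3.07%, Abca1 and Lrp1 spread from about 0 to 12.7%, and Abcg1 lies at 40.5% to 59.0%.

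Microglia libraries 1 and 3 held the most neutrophil marker RNA, and a fit with microglia 2 as the only microglia library was added after those sums had been seen. The lone library is then assumed to vary like the other groups. It gave log2 fold changes over T cells of 5.38 for Abca1, 4.30 for Lrp1, 1.82 for Soat1, 0.89 for Abcg1 and -0.93 for Srebf2. Over ILC2 it gave 5.96 for Abca1, 1.01 for Abcg1 and -1.13 for Srebf2. With all 3 microglia libraries the values over T cells were 5.31, 4.02, 1.35, 0.93 and -1.30 in the same order, and over ILC2 they were 5.89, 1.06 and -1.50. Microglia 2, the library of this fit, itself held 13476 CPM of neutrophil markers, more than any lymphocyte library. The part of neutrophil RNA in the values of these genes was not tested. In this fit edgeR called 0 of the 8 genes in either comparison, with adjusted p-values for Abca1 of 0.181 and 0.237 and for Srebf2 of 0.307 and 0.268.

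Around these 8 genes, 9 lists with 108 sterol genes were drawn up, and 94 of the 108 passed the count filter. Those that failed it included Apoc1, Apoc2, Abcg4, Abcg5, Abcg8, Apoa1, Vldlr, Lrp2, Marco, Cel, Osbpl10, Cyp46a1 and Cyp39a1. Lists share genes, and the median log2 fold change of all genes tested was -0.00 for microglia over T cells, 0.01 for microglia over ILC2 and 0.00 for ILC2 over T cells. Without library scaling those medians were -0.37, -0.31 and -0.01. Genes with no count in a population, set at their bound, left every list median as it was to the digits printed.

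Among 13 tested targets of LXR, 6 (46.2%) were higher and 0 lower in microglia than in T cells, where 7.13% and 5.91% of all genes were, and their median log2 fold change was 1.11. Against ILC2, 5 (38.5%) were higher and 0 lower, where 4.76% and 4.99% of all genes were, and the median was 2.65. Abca1 is among these targets. Apoe had 10517, 13010 and 10702 CPM in microglia, 693 and 934 CPM in ILC2, and 560, 277 and 1412 CPM in T cells. It was called over T cells at 3.93 ± 0.55 (edgeR adjusted p = 0.00136) and over ILC2 at 3.81 ± 0.65 (edgeR adjusted p = 0.00522), and without T cells 3 the value over T cells was 4.70. Mylip, a ubiquitin ligase, had 115, 169 and 154 CPM in microglia, 20.8 and 19.5 CPM in ILC2, and 30.4, 35.8 and 37.1 CPM in T cells. The log2 fold change of Mylip was 2.08 ± 0.34 over T cells and 2.86 ± 0.41 over ILC2 (edgeR adjusted p = 0.00315 and 0.00213). Apoe and Mylip kept both calls without any single library and with microglia 2 alone. Pltp, a phospholipid transfer protein, was called over T cells at 2.09 ± 0.40 and over ILC2 at 1.90 ± 0.46. Lpcat3, which remodels phospholipids, was called over T cells at 1.11 ± 0.27, and Lpl, the lipoprotein lipase, at 4.60 ± 1.16 over T cells and 7.01 ± 1.57 over ILC2. Srebf1, an LXR target that drives fatty acid genes, had log2 fold changes of -0.02 ± 0.36 over T cells and 0.51 ± 0.41 over ILC2 (edgeR adjusted p = 0.991 and 0.527). Arl4c, a small GTPase, had 73.9, 94.6 and 61.0 CPM in microglia, 10.2 and 14.1 CPM in ILC2, and 87.7, 59.3 and 62.5 CPM in T cells. It was called higher in microglia than in ILC2 at 2.65 ± 0.47 and, in ILC2 over T cells, lower at -2.52 ± 0.47 (edgeR adjusted p = 0.00699 and 0.0424).

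Among 7 receptors and corepressors, the RXR partner Rxrg was called higher in microglia and in ILC2 than in T cells, and the others were not called. That is 14.3% of the list in each comparison, where 7.13% and 0.431% of all genes were higher. In microglia over ILC2, 0 of the list were called, where 4.76% of all genes were higher and 4.99% lower. Rxrg had 16.3, 33.6 and 26.3 CPM in microglia, 5.82 and 9.52 CPM in ILC2, and 1 count in all 3 T cell libraries together. The ratio of microglia to T cells was 857 with a 95% counting interval of 153.8 to 33850, and that of ILC2 to T cells was 258.8 with an interval of 46.45 to 10220 (edgeR adjusted p = 0.00301 and 0.0475). The call of Rxrg in ILC2 over T cells was lost without any single library, with adjusted p-values of 0.0663 to 0.139. Rxra, another RXR, had 22.4, 21.3 and 22.3 CPM in microglia, 10.02 and 8.17 CPM in ILC2, and 6.73, 19.3 and 13.2 CPM in T cells (edgeR adjusted p = 0.573 over T cells and 0.419 over ILC2).

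Among 13 uptake receptors and adaptors, 2 (15.4%) were higher in microglia than in T cells and 1 (7.69%) higher than in ILC2, beside 7.13% and 4.76% of all genes tested, and the second share lies near that of all genes. The medians were 2.20 and 1.72. Trem2, a lipid-binding receptor of myeloid cells, had 2254, 2447 and 2101 CPM in microglia, 45.1 and 86.1 CPM in ILC2, and 36.0, 60.2 and 60.3 CPM in T cells. For Trem2 the log2 fold change was 5.44 ± 0.38 over T cells and 5.11 ± 0.44 over ILC2 (edgeR adjusted p = 5.32e-05 and 0.000199). Lrpap1, the chaperone of LRP1, was called over T cells at 1.22 ± 0.33.

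Most ester and transport genes were not called. Of 6 ester genes, 2 (33.3%) were higher in microglia than in T cells and 1 (16.7%) higher than in ILC2, beside 7.13% and 4.76% of all genes tested. Lipa, the lysosomal acid lipase that frees cholesterol from esters, was called over T cells at 1.54 ± 0.35 and over ILC2 at 2.37 ± 0.42. Lipe, the hormone-sensitive lipase, was called over T cells at 2.45 ± 0.69, and Nceh1, another ester hydrolase, was not called (1.06 ± 0.41, edgeR adjusted p = 0.127). Of 18 transport genes, 4 (22.2%) were higher and 1 (5.56%) lower in microglia than in T cells, where 7.13% and 5.91% of all genes were, and 13 were not called. Against ILC2, 3 (16.7%) were higher and 0 lower, where 4.76% and 4.99% of all genes were, and 15 were not called. The transport medians were 0.09 over T cells and 0.22 over ILC2, and they were -0.26 and -0.17 without library scaling. Npc2, which hands sterol out of the lysosome, had 1136, 1059 and 930 CPM in microglia, 300 and 510 CPM in ILC2, and 433, 403 and 383 CPM in T cells. It was called over T cells at 1.36 ± 0.26 and over ILC2 at 1.36 ± 0.30. Its membrane partner Npc1 was called over T cells at 2.30 ± 0.57, Stard3 at 1.73 ± 0.44 and Osbpl11 at 2.69 ± 0.67, and Gramd1b was the gene called lower. Stard3 and Osbpl11 were called over ILC2 too, at 2.03 ± 0.51 and 4.14 ± 0.85.

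For the synthesis enzymes, edgeR called 0 of the 21 enzymes in any comparison. Of all 13000 genes it called 13% in microglia over T cells, 9.75% in microglia over ILC2 and 0.923% in ILC2 over T cells. Unadjusted p-values under 0.05 were found for 1 enzyme (Lbr), 3 (Lbr, Lss and Sc5d) and 0 in these comparisons, in that order. Over all 13000 genes they were found for 3662, 3126 and 1221. DESeq2 called 1, 2 and 0 of the enzymes, beside 2713, 2329 and 529 of all genes. The medians of the enzymes were -0.12, -0.33 and 0.04. Hmgcs1, a synthase early in the pathway, had log2 fold changes of -0.12 ± 0.65 over T cells and 0.13 ± 0.73 over ILC2. Lbr, a sterol reductase and nuclear envelope protein, was the most abundant of the list and had 189, 100 and 148 CPM in microglia, 527 and 212 CPM in ILC2, and 244, 485 and 393 CPM in T cells (edgeR adjusted p = 0.0615 over T cells and 0.100 over ILC2).

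The SREBP list had 12 tested genes, of which Srebf2 was the gene called lower in microglia. That is 8.33% of the list, where 5.91% of all genes were lower than in T cells and 4.99% lower than in ILC2. Insig1, which holds SREBP2 in the endoplasmic reticulum, had 27.1, 9.19 and 11.4 CPM in microglia, 6.22 and 19.0 CPM in ILC2, and 7.49, 0.896 and 19.7 CPM in T cells, and was not called. Mbtps2, the protease that frees SREBP from the membrane, had 26.7, 17.7 and 24.3 CPM in microglia and 16.7, 15.5 and 2.49 CPM in T cells. The ILC2 libraries held 1 count together. It was called higher in microglia than in ILC2, 8.33% of the list beside 4.76% of all genes, and was not called over T cells. The ratio of microglia to ILC2 was 572 with a 95% counting interval of 102.7 to 22590 (edgeR adjusted p = 0.0116). That of T cells to ILC2 was 289.1 with an interval of 51.9 to 11420. The reported edgeR fit did not call it, and DESeq2 did (adjusted p = 0.000388). Among 5 oxysterol genes, 1 (20%) was called higher in microglia than in T cells, where 7.13% of all genes were. Over ILC2, 0 were called, where 4.76% of all genes were higher and 4.99% lower. The gene called was Cyp27a1, the sterol 27-hydroxylase, with 44.6, 38.7 and 22.7 CPM in microglia and 1.29 and 2.54 CPM in ILC2. It had no count in T cells, so that microglia were at least 128-fold higher than T cells (edgeR adjusted p = 0.00188). Ch25h, the cholesterol 25-hydroxylase, had 60.9, 65.3 and 61.4 CPM in microglia, 4.36 and 0.0793 CPM in ILC2, and 10.3, 24.5 and 1.49 CPM in T cells, and was not called (edgeR adjusted p = 0.219 over T cells and 0.0899 over ILC2).

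**Figure D4:**
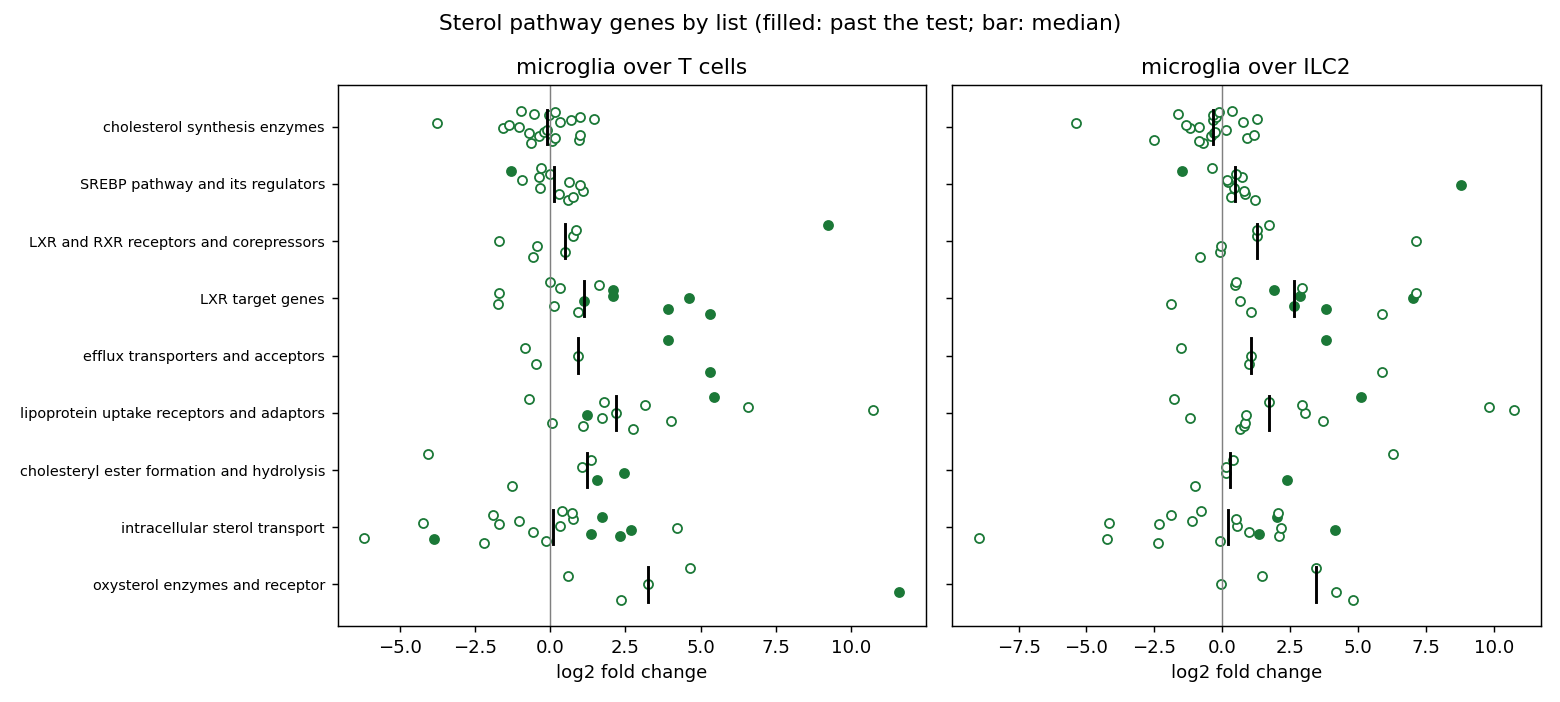
Log2 fold change (horizontal axis) of each tested gene of the 9 sterol lists in microglia over T cells and microglia over ILC2. Each point is a gene, filled where it passed the test, and the vertical bar is the list median. The synthesis list centres near 0 with 0 filled points, and the LXR target list has 6 and 5 filled points, all right of 0.

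Some of these calls and sizes depended on single libraries. Of 18 list genes called between microglia and T cells, Apoe, Cyp27a1, Mylip, Npc2, Pltp, Rxrg and Trem2 were called without any library. The other 11 were not called without at least 1 library, with edgeR adjusted p-values reaching 0.0811 for Lpl without microglia 2, 0.0896 for Lpcat3 without T cells 3, 0.0735 for Lipa and 0.131 for Lrpap1 without microglia 2, 0.130 for Lipe without microglia 2, 0.0892 for Stard3 without T cells 3, and 0.0820, 0.126 and 0.128 for Npc1, Osbpl11 and Gramd1b without microglia 3. Of 12 called between microglia and ILC2, Apoe, Mylip and Trem2 were called without any library. The values reached 0.0503 for Arl4c, 0.113 for Lpl, 0.108 for Npc2, 0.0726 for Osbpl11 and 0.182 for Stard3 without ILC2 1, and 0.0609 for Lipa, 0.0781 for Mbtps2 and 0.187 for Pltp without ILC2 2. Arl4c in ILC2 over T cells was not called without any single library, with adjusted p-values of 0.0579 to 0.204. Without each library the log2 fold change of Lpl ran from 3.97 to 5.34 over T cells and from 6.15 to 8.996 over ILC2, that of Osbpl11 over ILC2 from 3.49 to 5.16 and that of Gramd1b over T cells from -5.39 to -3.36.

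**Figure D5:**
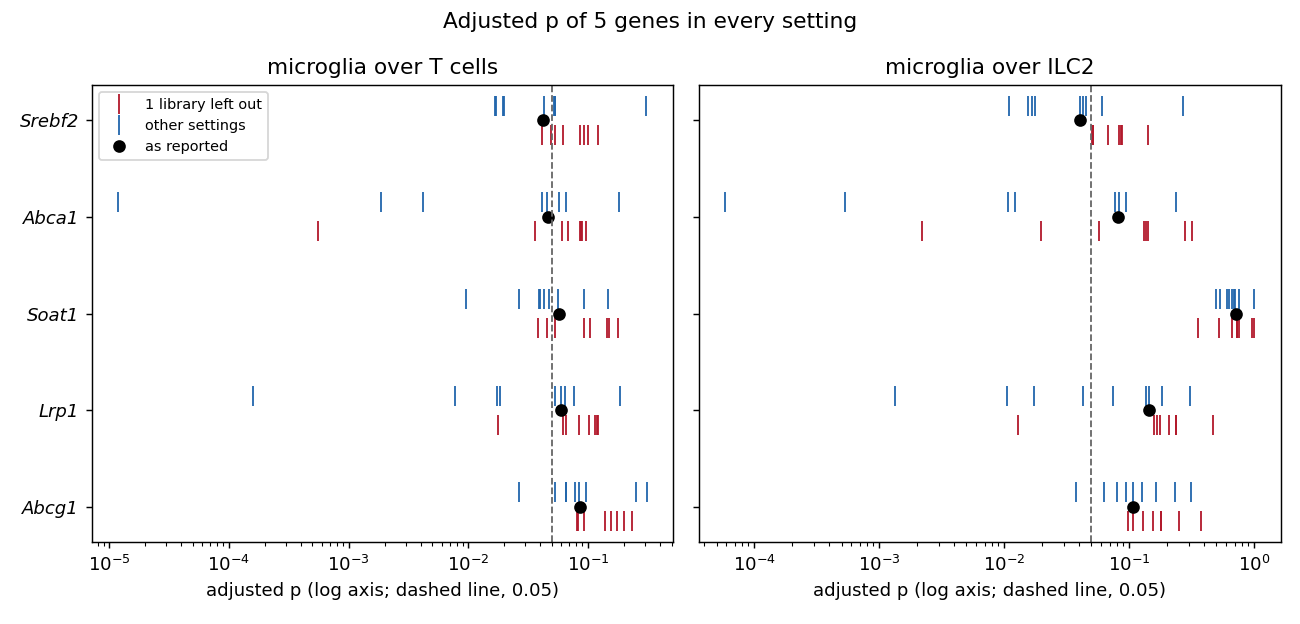
Adjusted p (horizontal axis, log scale, dashed line at 0.05) of Srebf2, Abca1, Soat1, Lrp1 and Abcg1 in microglia over T cells and microglia over ILC2. Black points are the values reported, red ticks are fits without 1 library and blue ticks are other settings. Against T cells the values of each gene fall on both sides of the line, and against ILC2 those of each gene but Soat1 do.

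The genes whose levels ran most like each of the 8 were ranked by Pearson r of log2(CPM + 1) over the 8 libraries, among all genes tested. These points share libraries and depth, and 3 populations set most of the spread. Abca1 ran most like Mxd1 (r = 0.996), Arhgef40 (0.995) and Spint1 (0.990). Among the genes most like Lrp1 were Cux1 (0.986) and Plod1 (0.982). Srebf2 ran most like Csnk1g2 (0.988), Mkrn2 (0.983) and Nxpe3 (0.982). Abcg1 was led by Tsga10 (0.960), Soat1 by Cers6, a ceramide synthase (0.960), Sqle by Gys1 (0.947), and Nr1h3 by Eaf2 (0.960). Nr1h2 ran most like Zfp110 (0.952), Prg3 (0.947) and Epx (0.946), of which Prg3 and Epx encode eosinophil granule proteins.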

How the data were processed

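The authors' deposited table gives whole-number read counts per gene and library that are not normalized, although its title says they are. Per the submitters' processing notes, the tools were STAR 2.5.3a, Cufflinks 2.0, DESeq2 1.1, bcl2fastq 2.20.0.422 and FastQC 1.0.0, with build mm10. Their roles, the program that counted reads and its use of strand are not given in the sources used here. In a check of how often low values occurred, chi-square divided by its degrees of freedom was 0.863 to 1.27 for the values as deposited and 3.74 to 8.67 for the same values scaled by 0.8 or 1.25.

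Of 24423 rows, 2 summary rows (reads outside genes, 53.8% to 61.0% of reads counted, and ambiguous reads, 0.338% to 1.23%) and 27 rows with symbols turned into dates (0.0425% to 0.102%) were left out. The table has 1 further column, headed ILC1, a name that no sample carries, and it was left out of every step, which left 2 of 3 labelled ILC2 samples. Reads of close paralogs or of the opposite strand may be counted in ways not given.

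Counts were fitted with edgeR 4.0.16 (limma 3.58.1, R 4.3.3), with TMM factors of 0.822 to 1.18, a mean count of at least 10, 1 fit of 8 libraries in 3 groups and a legacy quasi-likelihood F test. The common biological coefficient of variation came to 0.967. Each standard error (SE) is the size of the log2 fold change over the square root of F. Counting intervals cover 95%, and these intervals and the floor cover counting error only. Where a population had no count, the fold uses the mean floor of its libraries. Loci, exon lengths and transcripts come from GENCODE M21, on the assembly that mm10 names. DESeq2 1.42.0, limma-voom, other filters and scalings, fits of 2 groups and fits without each library were alternatives.

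The 8 genes, the lists, the markers and the tests were chosen with earlier results of these data known. Genes were named by rule: the 8 genes, up to 4 called genes of each list and comparison by adjusted p, the most abundant gene of each list, 15 further genes named whatever their values, and the 3 genes most like each of the 8. Gramd1b, Lss, Sc5d and the genes that failed the filter were named after their values were seen. Some genes that the rule names are not reported here.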

Additional observations from a re-analysis of the deposited data

How the results depend on the processing

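No paired analysis was possible because the column headings carry no replicate numbers. The sample titles repeat the same numbers in each population, and whether equal numbers mark shared animals is not stated. Any such pairing was left out of the fit. Where a value below moved, the cause was not tested. Over all tested genes, 1695 were called in microglia over T cells, 1268 in microglia over ILC2 and 120 in ILC2 over T cells. The newer quasi-likelihood method of edgeR called 2723, 2251 and 321, and DESeq2 called 2713, 2329 and 529. limma-voom called 2085 and 292 in the last 2 comparisons, the test without a filter called 235 in ILC2 over T cells, and microglia 2 alone, added after the neutrophil sums were seen, gave 687 and 549 in the first 2. Without each library in turn the counts were 1186 to 1762, 711 to 1270 and 62 to 121. Without library scaling, 35.5% and 33.8% of the calls in the microglia comparisons were higher, against 54.7% and 48.8% with it. With fits of the 2 groups alone, 61.7% were higher in microglia over ILC2.

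Of the 8 genes, 2 were called in microglia over T cells. That count was 1 without scaling (Srebf2) and 1 with the 2 groups alone, where it was Soat1 and neither of the 2 reported genes. It was 4 with the newer method, DESeq2 and limma-voom, and 0 to 2 without each library. Without a filter, Srebf2 was not called and Lrp1 and Soat1 were. With the size factors of DESeq2 in edgeR, Srebf2 was not called and Soat1 was. In microglia over ILC2, 1 was called. That count was 3 without a filter, with the newer method and with limma-voom, and 0 to 1 without each library. It was 2 with DESeq2 (Abcg1 and Srebf2) and 2 with the 2 groups alone (Abca1 and Lrp1, without Srebf2). DESeq2 gave no adjusted p for Abca1. In no fit was the sign of a called gene of the 8 turned.

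Of the sterol list genes, 18 were called in microglia over T cells, against 11 without scaling, 29 with the newer method, 7 with microglia 2 alone and 8 to 19 without each library. In microglia over ILC2, 12 were called, against 19 without a filter, 27 with the newer method, 24 with DESeq2 and with limma-voom, 7 with microglia 2 alone and 6 to 15 without each library. In ILC2 over T cells, 2 were called, against 1 without scaling, with the newer method and with limma-voom, 4 without a filter, 5 with DESeq2, and 0 with the 2 groups alone, with microglia 2 alone and without any library. Medians changed sign without scaling in the SREBP and transport lists (-0.26 and -0.26 over T cells) and in the ester and transport lists (-0.10 and -0.17 over ILC2).

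The log2 ratio of Abca1 to Abcg1 differed by 4.66 to 5.67 without each library, where the exact permutation test cannot go under 0.05. That of Nr1h3 to Nr1h2, which the added 1 CPM sets in the 4 libraries without a count of Nr1h3, ran from -0.49 to 0.64, and was -0.49, -0.19, -0.26 and -0.06 without microglia 1, T cells 1, ILC2 1 and ILC2 2.

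Among all fold changes of the 8 genes under other settings, 349 stayed on their side of the threshold, 26 passed it and 29 fell short of it. Levels under 3 counts in a library, 0.207 to 0.326 CPM, cannot be told from none at this depth.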
